A study of Mus musculus with 10 samples.

Results

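The genes described here encode 7 enzymes of glycolysis and lactate formation, Aldoa, Tpi1, Gapdh, Pgk1, Eno1b, Pkm and Ldha, as measured in mouse lung. They were taken by gene symbol from the array's platform annotation, and each of the 7 had 1 probe set there, out of 19505 genes with a symbol. The genes were chosen with their levels on these arrays known, so their levels and the differences between groups are given as a description and without a p-value for any of them. Lung RNA came from male C57BL/6J mice that were 6 weeks old, 40 in all and 8 in each of 5 groups, and 2 arrays represent each group. The uninjected mice carried no tumour cells and drank water. Mice of the remaining 4 groups received B16F10 cells, a transplantable melanoma line of C57BL/6 origin. They were given water, dacarbazine (DTIC, an alkylating drug) at 70 mg/kg per day, or SQ-diEG, a test compound, at a daily 5 or 25 mg/kg. Treatment lasted 20 days in all groups. The treatment text gives the same age in years, taken here to mean weeks. Whether 1 mouse or several gave the RNA of an array is not stated, nor how the cells were injected or how many tumour cells a lung held. The spread between the arrays of a group may therefore be technical. In whole lung, fewer cells of a type and less RNA per cell cannot be told apart.

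Glycolysis splits glucose into pyruvate and yields ATP without oxygen. Aldolase A (Aldoa) cleaves the 6-carbon sugar, triosephosphate isomerase (Tpi1) interconverts the 3-carbon products, glyceraldehyde-3-phosphate dehydrogenase (Gapdh) oxidizes one of them, phosphoglycerate kinase (Pgk1) makes ATP from it, enolase removes water and pyruvate kinase M (Pkm) makes ATP again. Lactate dehydrogenase A (Ldha) turns pyruvate into lactate and restores the NAD that Gapdh consumes. Tumour cells often run this route at a high rate, and several of its genes are known targets of the hypoxia-inducible factors, which bind a short DNA motif with the core ACGTG. Gapdh is also widely used as a reference gene for the amount of RNA.

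Stretches upstream of 3 gene starts are shown because Ldha is the member whose group means lay farthest apart, Gapdh is the member that separated all injected from all uninjected arrays, and Pgk1 is an enzyme of the same pathway with arrays of one group that disagreed. Each is the 250 bases before the start listed first for the gene in RefSeq on GRCm38.p6, 5′ to 3′ on the gene's strand, with ACGTG on either strand in capitals. The matches on both strands overlap in CACGTG. Ldha is at chr7:46845554-46845803 on the plus strand, Gapdh at chr6:125165774-125166023 on the minus strand and Pgk1 at chrX:106186850-106187099 on the plus strand.
Ldha: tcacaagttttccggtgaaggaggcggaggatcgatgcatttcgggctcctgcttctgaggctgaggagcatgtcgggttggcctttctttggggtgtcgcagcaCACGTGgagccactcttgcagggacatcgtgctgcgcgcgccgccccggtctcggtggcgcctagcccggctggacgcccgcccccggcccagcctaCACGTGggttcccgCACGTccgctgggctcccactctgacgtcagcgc
Gapdh: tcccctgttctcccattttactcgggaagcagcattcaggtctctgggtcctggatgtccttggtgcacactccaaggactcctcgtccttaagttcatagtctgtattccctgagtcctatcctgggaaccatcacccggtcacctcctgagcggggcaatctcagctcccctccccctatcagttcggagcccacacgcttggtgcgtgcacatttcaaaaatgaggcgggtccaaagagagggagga
Pgk1: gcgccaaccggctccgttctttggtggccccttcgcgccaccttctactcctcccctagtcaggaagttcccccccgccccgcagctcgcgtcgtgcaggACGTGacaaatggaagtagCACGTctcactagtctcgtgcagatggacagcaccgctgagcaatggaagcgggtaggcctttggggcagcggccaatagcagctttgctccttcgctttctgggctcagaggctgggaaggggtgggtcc
The Ldha stretch holds 5 matches in 3 separate places, the Pgk1 stretch 2 matches in 2 places and the Gapdh stretch 0. Of 32851 such stretches in the table, 16.6% held at least 1 match, 1.22% held 3 or more and 0.134% held 5 or more. These shares count matches on both strands, and no share was counted by separate places. In the stretch listed first, 2 of the 6 members found in the table had a match. Ldha had 0 matches in its other listed stretch. Pkm had 1 match in its other listed stretch, and Aldoa had 1 in each of its others, which overlap. A match describes these letters and is not evidence of binding.

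The arrays as a whole set the scale for these genes. The table holds deposited log2 values, and across genes, which are not independent replicates, any 2 arrays correlated at a Pearson r of 0.129 to 0.253. Probe sets named as background averaged 7.17 to 7.29 per array. The array also carries 5222 probe sets named as negative controls, and what sequence these match was not checked here. Their median lay between 7.56 and 7.74 and their 95th percentile between 10.67 and 11.05 on the 10 arrays, and 0.287% to 0.42% of genes per array exceeded the latter, called the control limit below. Of 48 markers of lung, blood, muscle and pigment cell types listed for a check of the tissue, 40 had a probe set, and 1 exceeded the control limit, the muscle creatine kinase gene Ckm, on 1 array. None of the 8 markers of alveolar type II cells did, so the labelled tissue was not visible in its defining genes. The study's text describes a 3′ array kit, while the probe set identifiers have the form of whole-transcript arrays. Whether the annotation pairs each value with the right gene was not tested, and every gene name below rests on it. A level near the negative-control median is not a detected one here, and most levels below are of that kind.

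No member held a repeatable level on all 10 arrays. A level was called repeatable if its range over the 10 arrays was at most 1 log2 unit and it exceeded the control limit on every array. This was met by 0 of the 7 members and by 0 of all 19505 genes. The range alone was within 1 unit for 0 members and for 34 genes, and the median range of all genes was 2.94. Tpi1 came nearest, with a range of 1.99, and Ldha had the widest range of the members, 3.84. Among the members, Gapdh exceeded the control limit on 4 arrays and the others on 0, while 513 genes exceeded it on at least 1 array. No gene exceeded it on more than 9 arrays.

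Aldoa, at the aldolase step, had no ordered pattern over the groups. Its 2 arrays read 7.58 and 7.71 in uninjected mice, 9.45 and 6.82 in injected mice given water, 7.78 and 7.74 with DTIC, 6.85 and 9.14 with SQ-diEG at 5 mg/kg and 5.71 and 8.25 at 25 mg/kg. In 3 of the groups the arrays lay over 2 log2 units apart, wider than any distance between group means of this gene. Its SD over the 10 arrays was 1.10, where the median gene had 0.94.

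Tpi1, at the isomerase step, was highest in injected mice given water and DTIC. It read 7.40 and 8.20 in uninjected mice, 9.39 and 8.97 in injected mice given water, 9.30 and 7.72 with DTIC, 8.20 and 8.00 at 5 mg/kg and 8.54 and 7.45 at 25 mg/kg. Both injected arrays given water lay above every array of the uninjected and SQ-diEG groups, while the DTIC arrays spanned 1.57 units. Its SD over the 10 arrays, 0.72, was the smallest of the 7 members.

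Gapdh was lower on both uninjected arrays than on each of the 8 injected arrays. It read 8.47 and 8.60 in uninjected mice, 10.93 and 9.39 in injected mice given water, 11.38 and 10.26 with DTIC, 9.65 and 11.24 at 5 mg/kg and 10.26 and 11.30 at 25 mg/kg. The 4 arrays above the control limit were 1 array of each injected group. The injected groups overlapped one another, with means from 10.16 to 10.82, and arrays of one group were 1.04 to 1.60 units apart. All 10 values lay above the negative-control median of their array, which held for no other member.

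Pgk1 lay below the negative-control median on 8 of the 10 arrays. It read 7.13 and 7.18 in uninjected mice, 7.15 and 9.23 in injected mice given water, 7.26 and 6.09 with DTIC, 7.32 and 8.9996 at 5 mg/kg and 6.43 and 7.46 at 25 mg/kg. The 2 high values, 9.23 and 8.9996, each had a partner array of the same group near 7, so neither group mean describes both its arrays.

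Eno1b, an intronless gene for an enolase, was higher on both injected arrays given water than on both uninjected ones, and was spread widely with DTIC. It read 7.93 and 7.94 in uninjected mice, 9.43 and 9.17 in injected mice given water, 10.41 and 7.58 with DTIC, 7.99 and 8.39 at 5 mg/kg and 7.63 and 9.02 at 25 mg/kg. The distance between the DTIC arrays, 2.83 units, was the widest within a group for any member. The annotation used here names no probe set for Eno1, the gene that Eno1b resembles most, so RNA of Eno1 and of Eno1b could not be told apart.

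Pkm, at the last ATP-forming step, was tight in both groups given water and loose in both SQ-diEG groups. With DTIC its arrays lay 0.55 units apart, where the median gene had 0.91. It read 7.82 and 7.81 in uninjected mice, 8.60 and 8.53 in injected mice given water, 8.00 and 7.45 with DTIC, 8.98 and 7.48 at 5 mg/kg and 6.30 and 8.76 at 25 mg/kg. The injected arrays given water lay above both uninjected and both DTIC arrays and inside the range of each SQ-diEG group.

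Ldha differed most between groups. It read 7.09 and 7.23 in uninjected mice, 9.73 and 10.68 in injected mice given water, 8.70 and 8.51 with DTIC, 9.48 and 6.91 at 5 mg/kg and 6.84 and 7.71 at 25 mg/kg. Both injected arrays given water lay above the other 8 arrays. Both DTIC arrays lay above both uninjected arrays and below both injected arrays given water, and the 5 mg/kg arrays lay 2.57 units apart. Both 25 mg/kg arrays lay close to the uninjected ones, 1 below and 1 above them. In order of the group means, injected water stood at 10.20 ± 0.67 (SD, n = 2), DTIC at 8.61 ± 0.14 (SD, n = 2), 5 mg/kg at 8.20 ± 1.82 (SD, n = 2), 25 mg/kg at 7.27 ± 0.61 (SD, n = 2) and uninjected at 7.16 ± 0.10 (SD, n = 2). Injected water and DTIC did not overlap, while each of the other neighbouring pairs in this order overlapped. On no array did Ldha exceed the control limit, which was 10.78 on the array where it read 10.68.

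**Figure D1:**
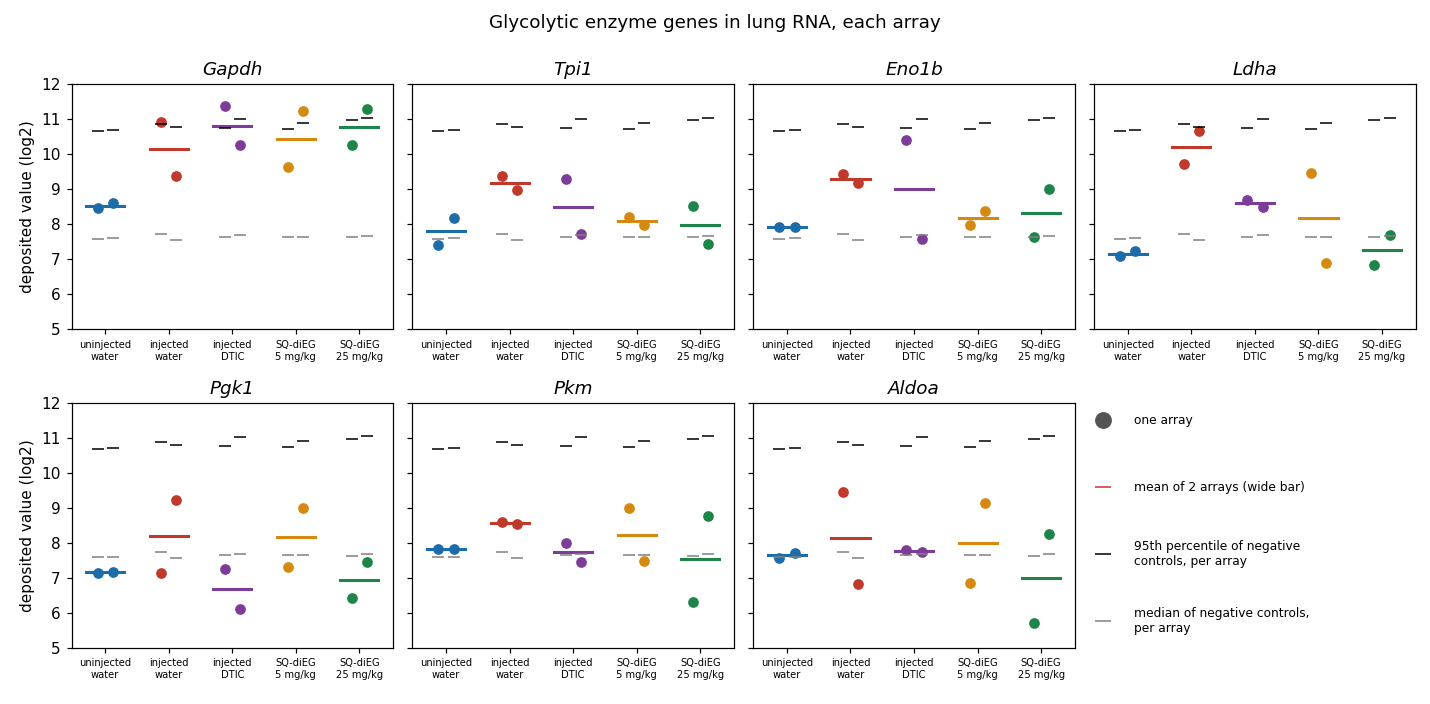
Deposited log2 values of the 7 glycolytic genes (y axis) in the 5 groups (x axis), with 1 point per array, a wide bar for the mean of 2 arrays, and short bars for the median (grey) and 95th percentile (black) of the negative controls on each array. Gapdh crosses the black bars on 4 arrays and no other gene does, and Ldha is highest on the 2 injected arrays given water, at 9.73 and 10.68.

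For most of these genes the arrays of the uninjected group lay closer together than those of any other group. The gap between the 2 uninjected arrays was 0.01 for Eno1b, 0.01 for Pkm, 0.05 for Pgk1, 0.14 for Gapdh, 0.14 for Aldoa, 0.14 for Ldha and 0.79 for Tpi1. All 7 gaps were below the median gap of all genes in that group, 0.90. In injected mice given water 3 of the 7 were below that group's median gap, with DTIC 3, at 5 mg/kg SQ-diEG 2 and at 25 mg/kg 1. Among the small gaps there were 0.04 for Aldoa with DTIC and 0.07 for Pkm in injected mice given water. A gap of at most 0.2, a limit set after the values were seen, was met by 6 of the 7 members and by 11.8% of all genes. In injected mice given water 1 member met it, with DTIC 2, and with SQ-diEG at either dose 0, where 11.8% to 12.3% of all genes did. The median gap of the members was 0.14 in uninjected mice and between 0.95 and 1.60 in the 4 injected groups, where the median gap of all genes stayed between 0.91 and 0.92.

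**Figure D2:**
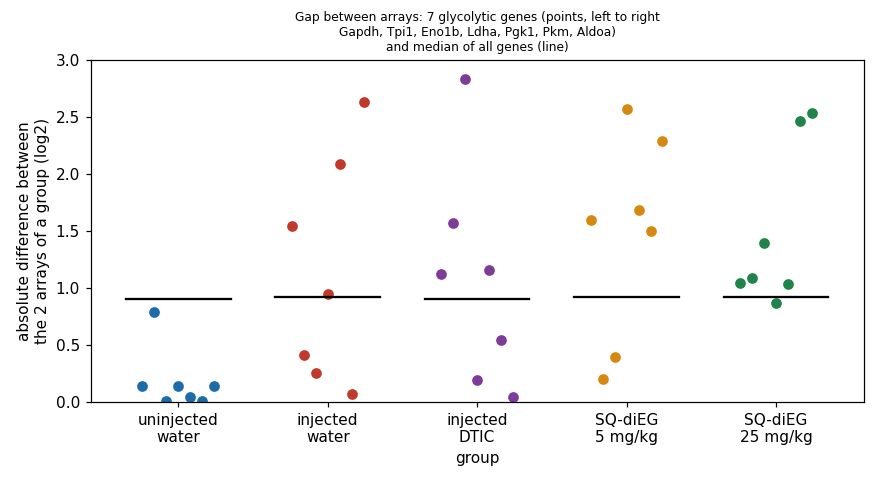
Absolute difference between the 2 arrays of a group (y axis, log2 units) for each of the 7 genes (points, ordered Gapdh, Tpi1, Eno1b, Ldha, Pgk1, Pkm and Aldoa from left to right) in each group (x axis), with the median of all genes as a line. All 7 points lie under the line in uninjected mice, at 0.01 to 0.79, and the points of the injected groups reach 2.83.

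The first comparison sets lungs of injected mice against those of uninjected mice, both given water. All 7 members averaged higher in injected than in uninjected lungs. The log2 difference was 3.04 (SE 0.96) for Ldha, 1.63 (SE 0.96) for Gapdh, 1.38 (SE 0.95) for Tpi1, 1.37 (SE 0.97) for Eno1b, 1.04 (SE 0.97) for Pgk1, 0.75 (SE 0.97) for Pkm and 0.49 (SE 1.01) for Aldoa. The SE comes from limma's fit over all genes, which draws the spread of each gene toward a common value. The median difference was 1.37 for the members and 0.05 for all 19011 genes tested, of which 52.2% averaged higher. The 2 injected arrays lay above the 2 uninjected ones for 5 members, Ldha, Gapdh, Tpi1, Eno1b and Pkm, where 18.3% of all genes did so, and below them for 0 members, where 16% of all genes did. Since the members were chosen with these values known, nothing is read from that count.

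The difference of Ldha was the widest of the 7. A difference at least as wide, in either direction, was found for 63 of the 19011 genes, 0.331%, and for Gapdh it was 11.1%, for Tpi1 17.3% and for Aldoa 62.9%. Ldha was singled out with its values known, so this share and those given for it below are descriptions, not tests. Ldha exceeded the next member, Gapdh, by 1.41 and the last, Aldoa, by 2.55 log2 units. None of the 7 passed limma's test over all genes at a Benjamini-Hochberg adjusted p of 0.05, and 0% of all genes did. By limma, 1092 genes had an unadjusted p under 0.05. The hybridization controls are added transcripts that do not come from the lung. Their mean was 8.47 and 8.68 for the uninjected mice but 10.28 and 10.99 for injected mice given water. With this mean as a covariate the difference was 4.10 for Ldha, 3.14 for Tpi1, 2.56 for Eno1b, 1.57 for Gapdh and 1.15 for Pkm, and those of Pgk1 and Aldoa turned to -0.72 and -0.91. Tpi1 then stood next to Ldha in place of Gapdh. Both uninjected arrays had a lower control mean than every injected array, so these adjusted values rest on extrapolation. Injection and the control mean cannot be told apart here.

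The mean of 5 pigment cell markers, which melanoma cells can express, was highest in injected lungs given water, as Ldha was. Single markers were divided. The mean of Pmel, Tyr, Tyrp1, Dct and Mlana was 7.38 and 6.99 in uninjected mice, 8.09 and 8.38 in injected mice given water, 7.37 and 7.15 with DTIC, 8.36 and 7.36 at 5 mg/kg and 6.89 and 7.07 at 25 mg/kg. None of the 5 exceeded the control limit on any array. With DTIC their mean was close to that of uninjected lungs, where Ldha was higher than in uninjected lungs. Of the 5, 4 averaged higher in injected than in uninjected lungs given water, with Pmel, a melanosome protein, at 2.93 (SE 0.97) and Tyr, the tyrosinase of melanin synthesis, at -0.55 (SE 1.02). At 5 mg/kg 2 of the 5 averaged higher than in injected lungs given water, Tyrp1 by 0.67 (SE 0.97) and Dct by 0.18 (SE 0.94). With DTIC 1 of the 5 did, and at 25 mg/kg 0 did. The part of melanoma cells in the Ldha levels was not tested.

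The difference of Gapdh was not limited to injected mice given water. With the 4 injected groups combined with equal weight, a comparison added after the data were seen, the mean of Gapdh was 10.55 with injection and 8.53 without, and the difference was 2.02 log2 units (SE 0.76). It was the 1 member whose injected arrays all lay above both uninjected arrays, which held for 2.55% of all genes, and 0 members had them all below, where 2.25% of genes did. Ldha differed by 1.41 (SE 0.76) and the other 5 members by 0.07 to 0.77. The hybridization controls were likewise higher on all 8 injected arrays, at 9.10 or more, so their mean and injection cannot be told apart here either. With their mean as a covariate the difference was 2.22 for Ldha, 1.99 for Tpi1, 1.97 for Gapdh, 1.69 for Eno1b and 0.50 for Pkm, so that Gapdh was no longer the widest, and Pgk1 and Aldoa were at -1.003 and -0.997. Limma's test called none of the 7 here, and 0% of all genes did, with 1031 genes at an unadjusted p under 0.05.

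DTIC was set against water in injected mice. The 4 remaining comparisons reuse arrays of the first or of one another, and the injected arrays given water, where Ldha was highest, enter 4 of the 5 planned comparisons, so their signs are not independent of one another. Ldha differed by -1.60 (SE 0.96), with both DTIC arrays below both arrays given water. Pgk1 differed by -1.52 (SE 0.97), but its groups overlapped. Pkm was at -0.84 (SE 0.97), Tpi1 at -0.67 (SE 0.95), Aldoa at -0.37 (SE 1.01), Eno1b at -0.30 (SE 0.97) and Gapdh at 0.66 (SE 0.96). Ldha and Pkm were the 2 members with both arrays below, where 16.2% of genes were. Without DTIC replicate 2 Tpi1 was at 0.12 and Eno1b at 1.11, without injected water replicate 1 Aldoa was at 0.95, and without replicate 2 Pgk1 was at -0.47 and Gapdh at -0.11. No member passed limma's test, and 0% of all genes did, with 925 genes at an unadjusted p under 0.05.

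SQ-diEG at 5 mg/kg was next set against water. Ldha differed by -2.01 (SE 0.96), and 4.66% of all genes differed by as much. This mean rests on unlike arrays, since without the array that read 6.91 the difference was -0.72 and without the array that read 9.48 it was -3.29. Eno1b and Tpi1 differed by -1.11 (SE 0.97) and -1.08 (SE 0.95), and with Ldha they were the 3 members with both arrays below, where 18% of genes were, and 0 had both arrays above, where 15.5% were. Pkm, Aldoa and Pgk1 differed by -0.33, -0.14 and -0.03 and Gapdh by 0.28, all within the spread of their arrays, and each of these 4 changed sign when 1 array was left out. Again limma's test called none of the 7, and 0% of all genes did, with 1005 genes at an unadjusted p under 0.05.

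At 25 mg/kg SQ-diEG the difference of Ldha from water was -2.93 (SE 0.96). This is nearly the size of its difference between injected and uninjected lungs, with the opposite sign. Both differences use the same injected arrays given water, where Ldha was highest, so they are not independent and neither backs the other. A difference as wide was found for 64 genes, 0.337%, which likewise only describes a gene chosen with its values known. The other members differed less. Pgk1 was at -1.25 (SE 0.97), Tpi1 at -1.19 (SE 0.95), Aldoa at -1.15 (SE 1.01), Pkm at -1.04 (SE 0.97), Eno1b at -0.98 (SE 0.97) and Gapdh at 0.62 (SE 0.96). Both arrays lay below those given water for Ldha, Tpi1 and Eno1b, where 16.8% of genes did. Single arrays decided several of these values. Without the 25 mg/kg array labelled replicate 1, Pkm was at 0.20, Aldoa at 0.11 and Eno1b at -0.28. Without injected water replicate 1 Aldoa was at 0.16, and without replicate 2 Pgk1 was at -0.21 and Gapdh at -0.16. Without 25 mg/kg replicate 2, Tpi1 was at -0.64 and Gapdh at 0.10. The members' median was -1.15, beside -0.02 for all genes. As before, limma's test called none of the members, and 0% of all genes did, with 997 genes at an unadjusted p under 0.05.

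Between the 2 doses of SQ-diEG, Ldha was 0.92 units lower on average at 25 than at 5 mg/kg, a difference of -0.92 (SE 0.96) with a 95% interval from -2.86 to 1.01. Leaving out the 5 mg/kg array that read 9.48 turned it to 0.36. The widest difference of a member was that of Pgk1, -1.22 (SE 0.97), followed by Aldoa at -1.01 (SE 1.01) and Pkm at -0.70 (SE 0.97). Gapdh, Eno1b and Tpi1 differed by 0.34, 0.13 and -0.10. For no member did the arrays of the doses separate, where 17.7% of genes were higher and 15.8% lower without overlap. Here too no member passed limma's test, and 0% of all genes did, with 983 genes at an unadjusted p under 0.05. Over the 5 groups together, limma's F test called 0% of genes, none of them a member, with 973 genes at an unadjusted p under 0.05.

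**Figure D3:**
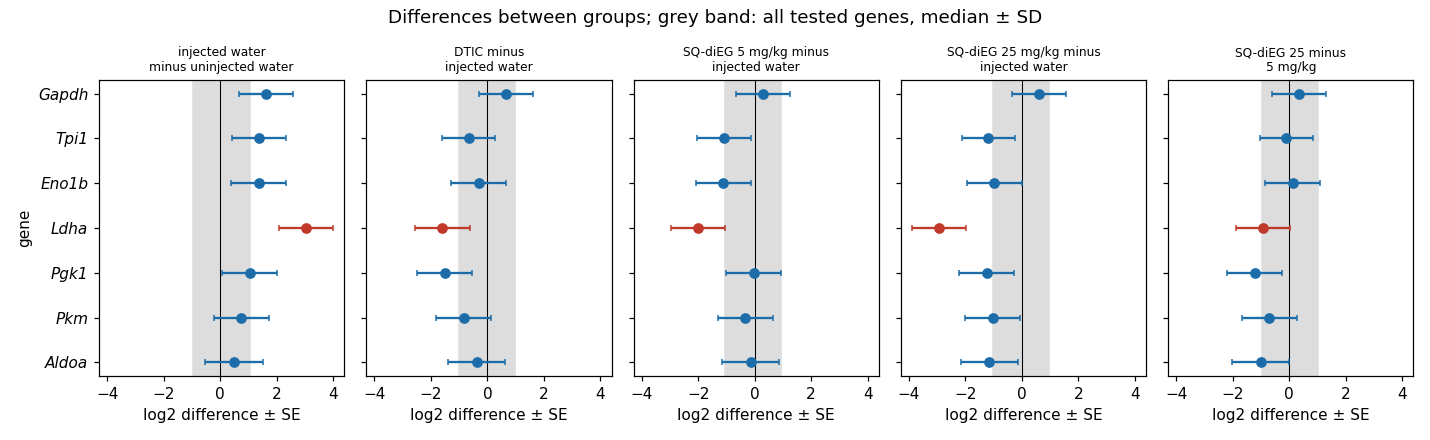
Log2 difference with its SE (x axis) for each of the 7 genes (y axis) in the 5 planned comparisons (panels), with Ldha in red and the median ± SD of all tested genes as a grey band. Ldha lies outside the band in the first 4 panels, at 3.04, -1.60, -2.01 and -2.93. Gapdh, Tpi1 and Eno1b are also outside it for injected against uninjected lungs. Against injected water, Pgk1 is outside it with DTIC and Tpi1 and Eno1b at 5 mg/kg. At 25 mg/kg Pgk1, Tpi1, Aldoa and Pkm are, and between the doses Pgk1 and Aldoa are.

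Other genes of the same enzyme families were on both sides of 0. Ldhb, the heart-type subunit of lactate dehydrogenase, read 6.85 and 8.81 in uninjected mice and 7.73 and 7.88 in injected mice given water, a difference of -0.02 (SE 0.96) where Ldha differed by 3.04. With SQ-diEG at 5 mg/kg it read 5.82 and 5.85, a difference of -1.97 (SE 0.96) from water beside -2.01 for Ldha. With DTIC Ldhb differed from water by -0.91 (SE 0.96) beside -1.60 for Ldha. At 25 mg/kg Ldhb differed from water by only -0.34 (SE 0.96), where Ldha differed by -2.93. Between the doses, 25 minus 5 mg/kg, Ldhb was at 1.63 (SE 0.96) and Ldha at -0.92. Ldhc, the testis subunit, read 6.04 and 5.98 in uninjected mice, 6.73 and 5.68 in injected mice given water and 8.38 and 9.11 with DTIC. It differed by 2.54 (SE 0.99) between DTIC and water, with arrays that did not overlap, while Ldha differed by -1.60.

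Gapdhs, the sperm form of Gapdh, differed by -1.76 (SE 1.00) between injected and uninjected lungs, opposite in sign to Gapdh. Its DTIC arrays read 10.69 and 6.80, almost 4 units apart. Aldoc, the brain-type aldolase, read 9.77 and 9.46 at 5 mg/kg and 7.87 and 7.50 in injected mice given water, a difference of 1.93 (SE 0.95), where Aldoa differed by -0.14. At 25 mg/kg Aldoc differed from water by 0.06 (SE 0.95), and with DTIC by -0.32 (SE 0.95). Eno2, Pgk2 and Pklr differed by 0.33, -0.46 and -0.48 between injected and uninjected lungs. Eno3, the muscle enolase, read 6.10 to 7.10 over the 10 arrays and did not pass the filter on low values. None of the 7 tested relatives passed limma's test in any of the 5 planned comparisons, and none exceeded the control limit on any array.

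The rest of the glycolytic pathway was taken from a list of 29 genes, of which 23 had a named probe set and 21 passed the filter on low values. Between injected and uninjected lungs given water 12 of the 21 averaged higher and 9 lower, with a median of 0.19 beside 1.37 for the 7 members. The list and the members were both written with results of these data known. By smallest p, the hexokinase Hk3 averaged 9.03 ± 1.07 in injected and 6.95 ± 0.32 in uninjected lungs (SD, n = 2), a difference of 2.08 (SE 0.96). The muscle phosphofructokinase Pfkm averaged 5.80 ± 0.14 and 7.55 ± 0.07 (SD, n = 2), a difference of -1.75 (SE 0.93). Gapdhs, above, and Pfkfb3, which makes the activator of phosphofructokinase, followed, the latter at 1.65 (SE 0.96). None passed limma's test over all genes.

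With DTIC 12 of the 21 were higher and 9 lower than with water, led by Ldhc, by Gapdhs at 2.11 (SE 1.00), by the muscle phosphoglycerate mutase Pgam2 at -1.54 (SE 0.93) and by Pfkfb3 at -1.26 (SE 0.96). At 5 mg/kg SQ-diEG 9 were higher and 12 lower. Hk3, Ldhb, Aldoc and Pfkfb3 had the smallest p, with Hk3 at -2.19 (SE 0.96) and Pfkfb3 at -1.92 (SE 0.96). At 25 mg/kg 11 were higher and 10 lower, with the glucose transporter Slc2a3 at -2.06 (SE 0.96), Ldhc at 1.97 (SE 0.99), Pfkfb3 at -1.28 (SE 0.96) and Hk3 at -1.26 (SE 0.96). Between the doses 11 were higher and 10 lower at 25 mg/kg. Aldoc, Ldhc, Ldhb and the transporter Slc2a1 led there, with Aldoc at -1.87 (SE 0.95) and Slc2a1 at -1.57 (SE 0.98). In none of these 4 comparisons did a gene of the list pass limma's test.

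**Figure D4:**
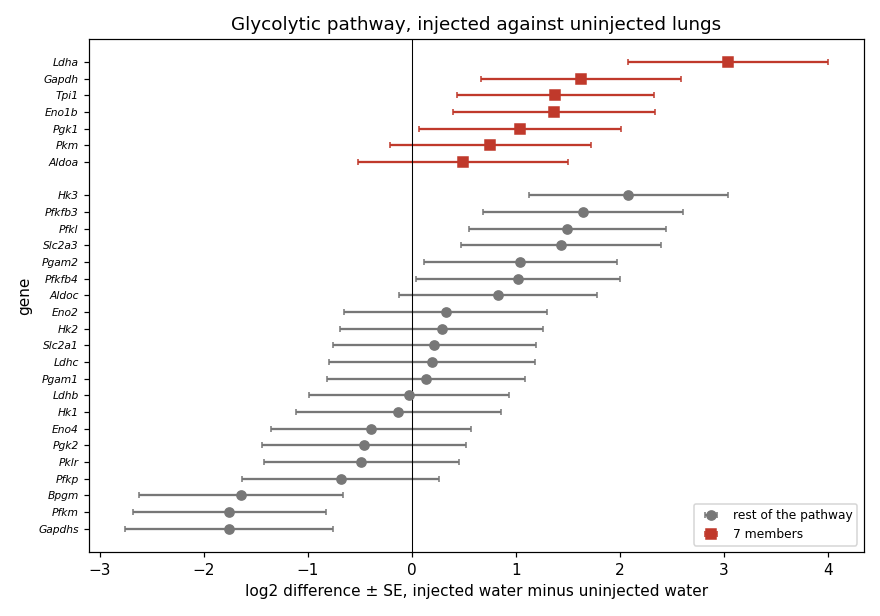
Log2 difference with its SE between injected and uninjected lungs given water (x axis) for the 7 members (red squares) and the 21 tested genes of the rest of the pathway (grey circles), each named on the y axis. The members range from 0.49 to 3.04, and the other genes from -1.76 to 2.08 on both sides of 0.

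Genes around the pathway were also divided. Of 18 tested genes that carry, oxidize or spare pyruvate and lactate, 9 were higher and 9 lower in injected lungs given water, and the smallest p belonged to Pdha1 at -1.34 (SE 0.98), a subunit of pyruvate dehydrogenase, the kinase Pdk3 at -1.36 (SE 1.02) and Dld at 1.24 (SE 0.97). At 5 mg/kg SQ-diEG 12 of these 18 were lower than with water, among them the monocarboxylate transporters Slc16a8 at -1.89 (SE 0.95), Slc16a3 at -1.66 (SE 0.95) and Slc16a1 at -1.55 (SE 1.00), carriers of lactate. At 25 mg/kg 10 were higher, with Pdha1 at 1.51 (SE 0.98) and the pyruvate carrier Mpc1 at 1.38 (SE 0.98). The median of the list was 0.05, -0.27 and 0.31 in these 3 comparisons, beside 0.05, -0.05 and -0.02 for all genes.

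In gluconeogenesis, the route back to glucose, 3 of 6 tested genes were higher and 3 lower in injected lungs given water. Fructose bisphosphatase 2 (Fbp2) averaged 7.08 ± 1.45 in injected and 9.38 ± 1.08 in uninjected lungs (SD, n = 2), a difference of -2.30 (SE 0.98). Fbp1 averaged 6.15 ± 0.38 at 25 mg/kg and 8.98 ± 0.53 with water (SD, n = 2), a difference of -2.83 (SE 0.97), and -1.31 (SE 0.97) with DTIC. In the pentose phosphate pathway, which branches off glycolysis, 1 of 5 tested genes was higher and 4 were lower in injected lungs, led by Rpia at -0.99 (SE 0.95).

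Of 19 tested hypoxia response genes, 8 were higher and 11 lower in injected than in uninjected lungs given water, with a median of -0.24 where Ldha stood at 3.04. Ankrd37 averaged 9.64 ± 0.23 and 7.30 ± 0.31 (SD, n = 2), a difference of 2.34 (SE 0.95), and against water it differed by -2.49 (SE 0.95) with DTIC and by -2.18 (SE 0.95) with SQ-diEG at 25 mg/kg. Between injected and uninjected lungs given water, the vasodilator peptide gene Adm differed by -2.11 (SE 0.98) and the oxidase Ero1a by 1.72 (SE 0.96). Other genes of the list went the other way from Ankrd37. At 25 mg/kg Pgf differed from water by 2.28 (SE 0.94) and Adm by 2.15 (SE 0.98). Against water 10 of the 19 were higher and 9 lower with DTIC, with a median of 0.25. At 25 mg/kg 10 were higher and 9 lower, with a median of 0.04. Of 17 tested reference genes outside glycolysis 11 were higher in injected lungs, with a median of 0.60. The cyclophilin Ppia averaged 9.14 ± 0.74 and 6.48 ± 0.28 (SD, n = 2), a difference of 2.67 (SE 0.96), the transferrin receptor Tfrc differed by -2.65 (SE 1.05) and the ferritin light chain Ftl1 by 2.17 (SE 0.95). No gene of these lists passed limma's test over all genes in any of the 5 planned comparisons, in either direction.

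Over the 10 arrays, the genes with the highest Pearson r with Ldha among the 17989 tested genes other than Ldha without a clone-type name (such as those that begin with Gm and a number or contain Rik) were Olfr49 (r = 0.91, Spearman rho = 0.85), Ociad2 (r = 0.90, rho = 0.81), Sptlc3 (r = 0.90, rho = 0.83), Gml (r = 0.90, rho = 0.88) and Hif3a (r = 0.89, rho = 0.90). These are the highest of many values over only 10 arrays that share their normalization, and no p is given. Each averaged highest in injected mice given water, Gml at 10.42 and Hif3a at 8.57. The other members ranked lower in that order, with Pkm 357th at r = 0.66, Tpi1 717th at r = 0.58, Eno1b at r = 0.47, Pgk1 at r = 0.28, Gapdh at r = 0.04 and Aldoa at r = 0.01. Genes with the nearest level to a repeatable member were to be named as well, and none are because no member was repeatable.

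Several members have close copies in the genome that a probe set could share. By symbol, the RefSeq gene table of GRCm38.p6 lists 7 pseudogenes of Tpi1, 3 of Gapdh, 3 of Ldha and 3 of Pgk1, and 2 retrogenes of Aldoa, and copies under other names are not counted. Which probes belong to each probe set was not analysed here, so the level of these genes is uncertain to the extent that copies contribute.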

How the data were processed

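Lung RNA of 10 samples was hybridized to Affymetrix arrays. The authors deposited log2 values, 1 per probe set. The submitters' processing notes name Transcriptome Analysis Console, Affymetrix Expression Console and RMA, with versions and genome build not given in the sources used here. Probe sets (28846, of which 19572 had a gene symbol) were named from the platform annotation. Where a gene had several, the one highest on average stood for it. Genes were tested if, on 2 arrays or more, they reached the 40th percentile of the array's probe sets other than controls, which left 19011. One group-means model over all 10 arrays was fitted in R 4.3.3 with limma 3.58.1 (lmFit, eBayes, 5 residual and 51 prior degrees of freedom), two-sided, with Benjamini-Hochberg adjustment over all genes tested. The code was tested on simulated data. The number of arrays limits the precision. The members and lists were chosen with earlier results of these data known. Named were the 7 members, their relatives at the same step, up to 4 genes of the pathway list and 3 of other lists by smallest p (for the lists around the pathway, only in comparisons described), and the 5 genes most correlated with Ldha. Group and replicate number came from the titles. The alternatives were other normalizations, filters, probe set summaries, moderation, samples, a replicate block, a hybridization covariate and leaving out arrays.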

Additional observations from a re-analysis of the deposited data

How the results depend on the processing

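Calls were counted under 130 alternative settings over the 6 contrasts and the F test, and 129 of them gave 0 genes. The exception was quantile normalization for all injected against uninjected lungs, a comparison added after the data were seen, with 2 genes, Mettl5 and Tle6, which are not members and were named after their values were seen. Of 791 alternative differences of the members, 42 changed sign and none passed limma's test. The Ldha difference between injected and uninjected lungs given water was 4.10 with the hybridization covariate and 2.57 to 3.51 when arrays were left out. When arrays were left out, that of Ldha from water ran from -2.07 to -1.13 with DTIC, from -3.29 to -0.72 at 5 mg/kg and from -3.40 to -2.46 at 25 mg/kg. Without injected water replicate 2, Pgk1 no longer averaged higher than in uninjected lungs (-0.003), and without replicate 1 Aldoa stood at -0.83 and Gapdh at 0.86. When arrays were left out, Gapdh ran from -0.11 to 1.43 for DTIC against water, from -0.52 to 1.08 at 5 mg/kg, from -0.16 to 1.39 at 25 mg/kg and from -0.46 to 1.13 between the doses, where quantile normalization gave -0.20. Across genes, same-numbered deviations correlated at -0.02 to 0.05 over the 10 pairs of groups. The hybridization control mean, however, was higher on replicate 2 than on replicate 1 in every group. Whether the replicate numbers pair the arrays is therefore not settled. With a replicate block 0 genes passed in each comparison, and Ldha differed by 3.04 between injected and uninjected lungs given water. Counts of members above the negative controls on all arrays stayed at 0 under each setting run. An array left out leaves a group with 1 array, which is assumed to vary like the others.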
